A study of Mus musculus with 15 samples.

Results

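The 35 genes described here encode the glucose transporters, glycolytic enzymes, lactate dehydrogenases and glycogen enzymes named by a fixed list, taken from 35675 mouse genes with a transcript in the deposited tables. All 35 were among the 19331 genes that passed the filter on low counts. They comprise 7 forms named for muscle (Pfkm, Pgam2, Eno3, Pygm, Phka1, Phkg1 and Slc2a4), 10 paralogs of those forms made by other genes, and 18 further members. Levels were measured by poly-A RNA-seq in 15 libraries from 5 conditions with 3 libraries each. Primary mouse embryonic fibroblasts (MEFs) from E13.5 embryos of genotype Tg:Pax7-nGFP/C57BL6;DBA2 were kept untreated in iMPC medium (iMPC, induced myogenic progenitor cell) or received 4 transfections of synthetic MyoD-mRNA (+MyoD). MyoD is the transcription factor that converts fibroblasts to muscle. The 3 remaining groups received the same transfections with forskolin, a cAMP agonist, RepSox, a TGF-β receptor inhibitor, and a GSK3 inhibitor, CHIR99210 (together +MyoD+F/R/C), alone or with the JNK inhibitor SP600125 (+MyoD+F/R/C+SP) or the JAK inhibitor CP690550 (+MyoD+F/R/C+CP). The 3 replicates of each group came from 3 MEF lines, 1 embryo each, and a replicate number was taken to name a line. All 15 libraries were labelled day 10, although the deposited names of the MEF tables mark them d0. Transfected cultures also received the protein B18R, so a comparison with MEFs covers transfection, B18R and MyoD together, and also the days in culture if the MEFs were collected on day 0. Each culture was a mixture of cells, and in these bulk libraries fewer cells of a type and less RNA per cell cannot be told apart.

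As background, glycolysis splits glucose into pyruvate, which lactate dehydrogenase turns into lactate. Skeletal muscle stores glucose as glycogen, and releases it through glycogen phosphorylase, which phosphorylase kinase switches on when calcium or cAMP signals rise. Several steps are served by gene families in which one paralog is typical of adult muscle and another of embryonic, liver or brain cells. GSK3, the target of CHIR99210, is named for its phosphorylation of glycogen synthase, an action on the protein that RNA levels do not report.

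Total estimated counts ranged from 29393872 to 41885769 per library. Skeletal muscle markers (8 of 8 detected, among them Myh3, Acta1 and Ckm) summed to between 35.1 and 47.8 CPM, the count relative to TMM-adjusted depth, in MEFs, between 1148 and 1756 in +MyoD and between 4570 and 8320 in the 9 F/R/C libraries. Fibroblast markers (6 of 6) were summed at 2844 to 3951 CPM in MEFs, 11357 to 41657 in +MyoD and 12494 to 21568 with F/R/C. Most of this sum was the collagens Col1a1, Col1a2 and Col3a1. Pdgfra was 133, 67.4 and 108 CPM in MEFs and 61.7, 253 and 323 in +MyoD. Dcn and Lum were higher in each +MyoD library than in any MEF library. Markers of cycling cells (5 of 5) were at 1015 to 1159 CPM in MEFs, 86.7 to 102 in +MyoD and 144 to 352 with F/R/C. The share of counts on mitochondrial transcripts was 1.31% to 1.80% in MEFs and +MyoD and 2.52% to 5.06% with F/R/C, and its part in the results was not tested. The +MyoD libraries stood apart from each other for these enzymes. Replicate 1 held the lowest CPM of its group for 26 of the 35 members, where 36.5% of all tested genes were lowest in it. Replicate 2 held the highest CPM of its group for 25 of the 35 members, where 34.5% of all tested genes were highest in it. Low oxygen response genes (8 of 8, among them Vegfa, Car9 and Egln3) summed to 417 CPM in +MyoD replicate 1, 1275 in replicate 2 and 522 in replicate 3, against 192 to 339 in MEFs and 454 to 892 with F/R/C. Results for the members that rest on +MyoD are therefore given with and without these libraries where the call changes, and the part of low oxygen genes in them was not tested.

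The comparison of +MyoD with MEFs asks how the enzymes differ after MyoD transfection alone. Pygm, Pgam2, Pygl, Slc2a4, Aldoc and Eno2 were 9.44-fold to 29.4-fold higher in +MyoD, whereas Eno1 was 1.75-fold lower. A member was called where edgeR's quasi-likelihood test gave a Benjamini-Hochberg adjusted p of at most 0.05 over all 19331 genes and the log2 fold change was over 0.5 in size. By this rule 16 of 35 members (45.7%) were higher and 1 (2.86%) was lower, where 22.8% of all tested genes were called higher and 18.0% lower. The median log2 fold change of the members was 0.54, beside 0.12 over all tested genes. Without +MyoD replicate 2 the counts were 14 higher and 5 lower: Gys1 and Phka2 lost their call, and Gapdh, Pgam1, Pgk1 and Slc2a1 were called lower. Without +MyoD replicate 1 there were 19 higher, adding Gpi1, Pfkp and Tpi1, and 2 lower, adding Hk2. Without +MyoD replicate 3 there were 18 higher, adding Gpi1 and Pfkp, and without MEFs replicate 1 there were 2 lower, adding Hk2.

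Adding F/R/C to MyoD was compared with MyoD alone, and the +MyoD libraries compared with MEFs above served here as the reference. Pygm, Pgam2, Slc2a4, Ldhb and Eno3 were higher with F/R/C, by 2.07-fold to 6.69-fold, and Pygb, Hk1 and Slc2a1 were lower. These were 5 members higher (14.3%) and 3 lower (8.57%) of 35, where 10.9% of all tested genes were called higher and 8.39% lower. Of the 5 that rose, 4 were muscle forms. Without +MyoD replicate 2 the counts were 7 higher, with Aldoa, Pfkm and Tpi1 gained and Eno3 lost, and 2 lower, with Slc2a1 lost. Without +MyoD replicate 1 they were 4 higher, with Eno3 lost, and 5 lower, with Pfkl and Pgam1 gained. The members' median log2 fold change was 0.03, as it was over all tested genes. Against MEFs, +MyoD+F/R/C had 16 members higher (45.7%) and 3 lower (8.57%), where 26.6% of tested genes were higher and 21.6% lower, with a median of 0.48 beside 0.19 over all. The lower members were Eno1, Slc2a1 and Pgam1, and without +MyoD+F/R/C replicate 1 there were 6, adding Gapdh, Hk2 and Pgk1.

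**Figure D1:**
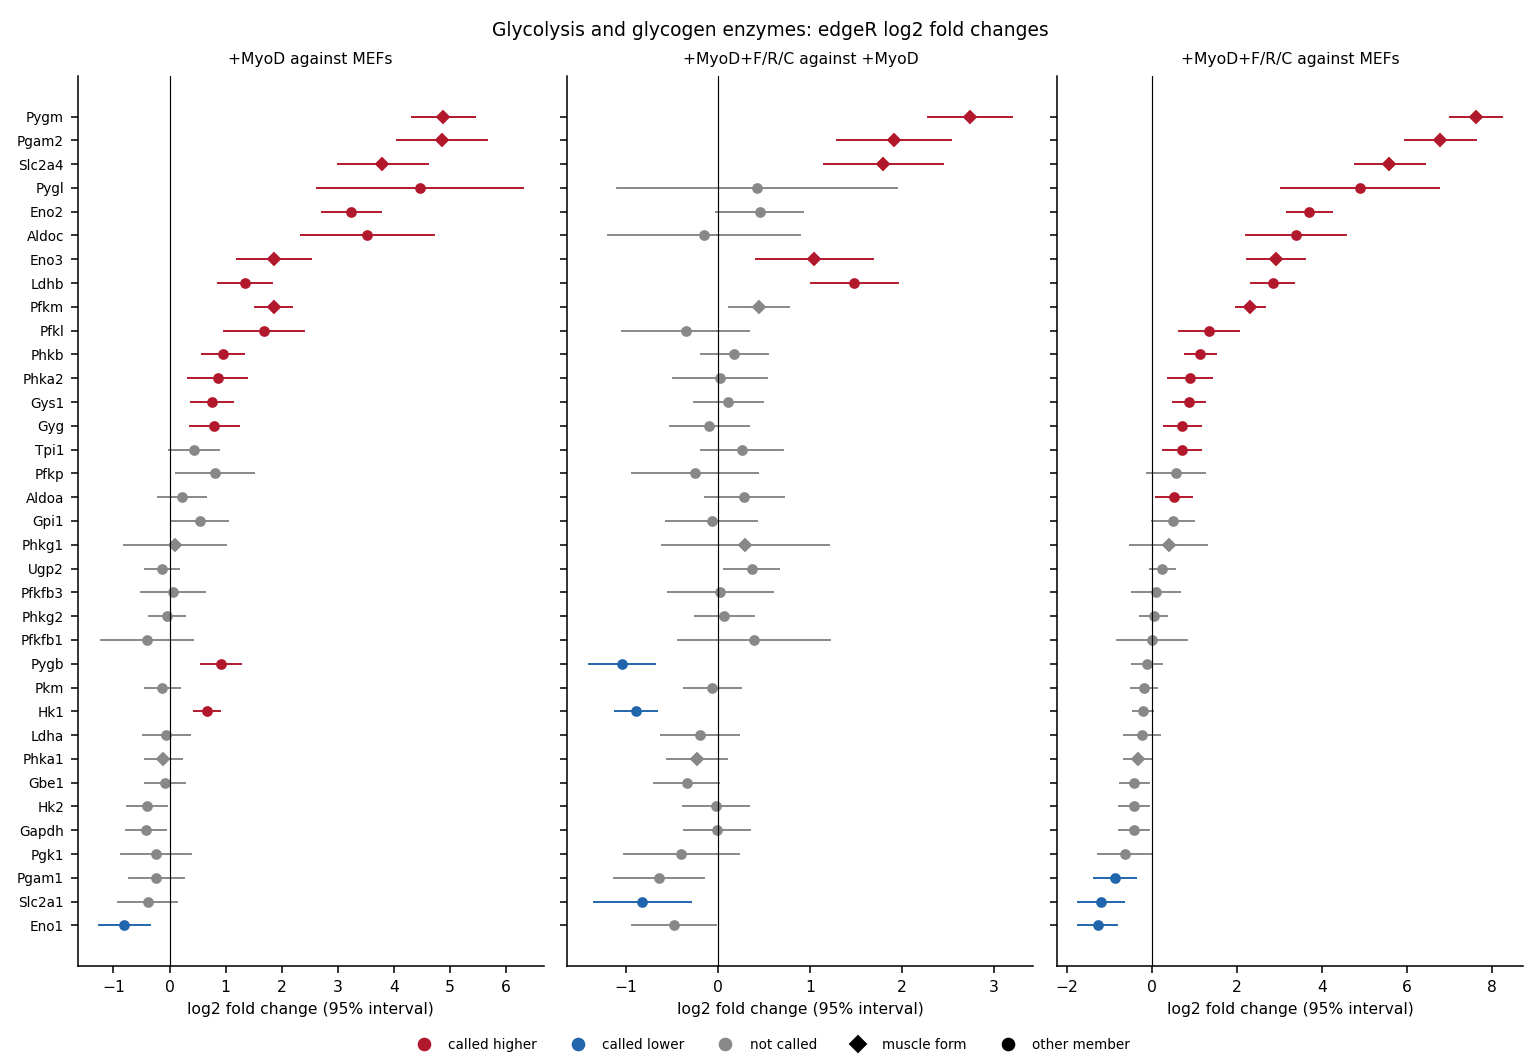
Log2 fold changes of the 35 members (rows, ordered by the comparison of +MyoD+F/R/C with MEFs) in 3 comparisons, 1 panel each, with bars for 95% intervals from the edgeR fit; red marks members called higher, blue lower and grey not called, and diamonds mark the 7 muscle forms. Pygm and Pgam2 have the highest values in all 3 panels, while Eno1, Slc2a1 and Pgam1 lie at the bottom of the right panel.

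Glucose enters fibroblasts and many other cells through the transporter Slc2a1 (GLUT1), and muscle and fat cells move Slc2a4 (GLUT4) to their surface in response to insulin. Slc2a4 (chr11:69942539-69948188, minus strand, GRCm38) was measured at 0.0725, 0.249 and 0.118 TPM (a level per length of transcript, scaled to a fixed total per library) in MEFs replicates 1, 2 and 3, at 1.83, 1.85 and 2.48 in +MyoD and at 8.71, 9.67 and 10.4 in +MyoD+F/R/C. The 3 groups did not overlap. Its log2 fold change was 3.78 ± 0.37, adjusted p = 1.0e-06 for +MyoD against MEFs, with the error given as SE here and below. A further rise of 1.80 ± 0.30, adjusted p = 5.9e-04 was found when F/R/C was added. Adipocyte markers (5 of 5 detected) summed to 0.862 to 1.02 CPM in MEFs, 2.41 to 35.2 in +MyoD and 24.7 to 52.3 in +MyoD+F/R/C, and their part in the Slc2a4 rise was not tested. Slc2a1 stood at 92.0, 122 and 113 TPM in MEFs, 65.0, 131 and 74.2 in +MyoD and 65.3, 46.1 and 51.9 in +MyoD+F/R/C. The +MyoD value of replicate 2 was above all MEFs, and the other +MyoD libraries were below them. In the fit, Slc2a1 was not called for +MyoD against MEFs (-0.39 ± 0.25, adjusted p = 0.22), fell with F/R/C (-0.82 ± 0.25, adjusted p = 0.027) and was 2.31-fold lower in +MyoD+F/R/C than in MEFs (-1.21 ± 0.25, adjusted p = 7.8e-04). Leaving out +MyoD replicate 2 turned the first into a call (-0.82, adjusted p = 0.003, where its alternatives ranged from 0.003 to 0.6) and ended the second (-0.39, adjusted p = 0.18, range 0.0052 to 0.18). The second was also lost without +MyoD+F/R/C replicate 2 (adjusted p = 0.098) or 3 (adjusted p = 0.096) and in a fit of the 6 libraries alone (adjusted p = 0.13).

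Hexokinases trap glucose inside the cell as glucose 6-phosphate. Hk1, the form of most tissues, read 48.2, 46.1 and 45.9 TPM in MEFs, 81.7, 85.0 and 79.2 in +MyoD and 48.6, 42.4 and 45.3 in +MyoD+F/R/C. It was high in the +MyoD libraries alone of these groups, and no +MyoD library overlapped the others. The rise over MEFs was 0.67 ± 0.11, adjusted p = 1.2e-04 and the fall on adding F/R/C was -0.89 ± 0.11, adjusted p = 4.2e-05 on the log2 scale, so that +MyoD+F/R/C and MEFs differed by -0.22 (95% interval -0.45 to 0.01), which was not called. Hk2, the insulin-regulated form of muscle and fat, was at 21.7, 37.2 and 25.9 TPM in MEFs, 26.1, 17.3 and 31.5 in +MyoD and 31.8, 22.4 and 24.1 in +MyoD+F/R/C, and the groups overlapped. Gpi1, which interconverts glucose and fructose 6-phosphate, was 423, 458 and 423 TPM in MEFs and 499, 993 and 521 in +MyoD, with replicate 2 highest and all 3 above the MEFs, and was not called (log2 fold change 0.54 ± 0.23, adjusted p = 0.07). It was called in DESeq2 (0.54, adjusted p = 0.048), without +MyoD replicate 1 (0.72, adjusted p = 0.017) and without +MyoD replicate 3 (0.68, adjusted p = 0.039), over a range of 0.017 to 0.56.

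Phosphofructokinase commits sugar to glycolysis, and its 3 genes are named for muscle (Pfkm), liver (Pfkl) and platelet (Pfkp). Pfkm (chr15:98092589-98132451, plus strand) rose from 15.6, 11.3 and 13.3 TPM in MEFs to 45.9, 58.1 and 55.5 in +MyoD, a log2 fold change of 1.85 ± 0.16, adjusted p = 2.9e-07. With F/R/C it read 64.9, 86.1 and 76.8 TPM. These libraries lay above every +MyoD library, and the log2 fold change of 0.45 ± 0.15, adjusted p = 0.047 was under the size required for a call. Without +MyoD replicate 2 it was called (0.56, adjusted p = 0.027, over a range of 0.027 to 0.21), as it was without +MyoD+F/R/C replicate 1 (0.56, adjusted p = 0.033). Pfkl also rose, from 37.2, 29.8 and 28.5 TPM in MEFs to 47.4, 139 and 117 in +MyoD (1.68 ± 0.33, adjusted p = 6.6e-04), and was 2.52-fold higher in +MyoD+F/R/C than in MEFs (1.33 ± 0.33, adjusted p = 0.003). Pfkp, at 22.9, 24.1 and 26.5 TPM in MEFs and 35.5, 75.4 and 27.1 in +MyoD, was not called. Of its 31-base words, 5.28% also occur in transcripts of Pitrm1. The estimated counts of Pitrm1 were 212% of those of Pfkp over all libraries, and up to 577% in a single library. Pfkfb1 and Pfkfb3 make or remove fructose 2,6-bisphosphate, the activator of phosphofructokinase. Their levels ranged from 1.58 to 6.29 TPM and from 11.6 to 25.9 TPM over the 15 libraries, and neither was called in any of the 5 comparisons.

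Aldolase cleaves fructose 1,6-bisphosphate. Aldoa, the muscle and general form, was abundant throughout, at 1037, 1054 and 1048 TPM in MEFs, 948, 1813 and 1131 in +MyoD and 1741, 1747 and 1634 in +MyoD+F/R/C. The F/R/C libraries lay above all MEFs, while +MyoD replicate 2 lay above the F/R/C libraries. Its call against MEFs in +MyoD+F/R/C (0.52 ± 0.20, adjusted p = 0.042) was lost on leaving out any of the 6 libraries in turn, without the low count filter, and with counts scaled from TPM (adjusted p over the alternatives 0.0031 to 0.12). Without +MyoD replicate 2, Aldoa was called higher with F/R/C than with MyoD alone (0.65, adjusted p = 0.0049, over a range of 0.0049 to 0.81). Aldoc, the brain form, was rare, at 1.27, 1.42 and 0.584 TPM in MEFs and 2.87, 15.7 and 5.36 in +MyoD, and rose by 3.52 ± 0.56, adjusted p = 9.3e-05 on the log2 scale. The lowest and highest +MyoD libraries differed widely, yet each was above every MEF library. Tpi1, which interconverts the 2 triose phosphates, was 415, 331 and 361 TPM in MEFs and 741, 738 and 625 in +MyoD+F/R/C, a rise of 0.70 ± 0.21, adjusted p = 0.011.

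Gapdh and Pgk1 carry out the next steps, and Pgk1 yields ATP. Gapdh was the most abundant member in each of the 5 groups, at 4206, 4431 and 4361 TPM in MEFs, 2984, 4439.5 and 3198 in +MyoD and 3993, 4137 and 3043 in +MyoD+F/R/C. It was not called in +MyoD against MEFs (-0.42 ± 0.17, adjusted p = 0.055), and was called lower there without +MyoD replicate 2 (-0.64, adjusted p = 0.0035, over a range of 0.0035 to 0.18). In +MyoD+F/R/C against MEFs its log2 fold change was under the size required for a call (-0.43 ± 0.17, adjusted p = 0.044). It was called lower there without +MyoD+F/R/C replicate 1 (-0.53, adjusted p = 0.03) or 2 (-0.52, adjusted p = 0.035), over a range of 0.03 to 0.13. Transcripts of 4 other genes, among them Gm10358 and Gm3839, share at least 5% of its 31-base words, and the estimated counts of each were 0.0271% to 0.111% of those of Gapdh over all libraries, and up to 0.265% in a single library. Pgk1 varied more, at 744, 794 and 803 TPM in MEFs and 416, 1090.5 and 661 in +MyoD. The highest and lowest of these 6 libraries were both +MyoD libraries.

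**Figure D2:**
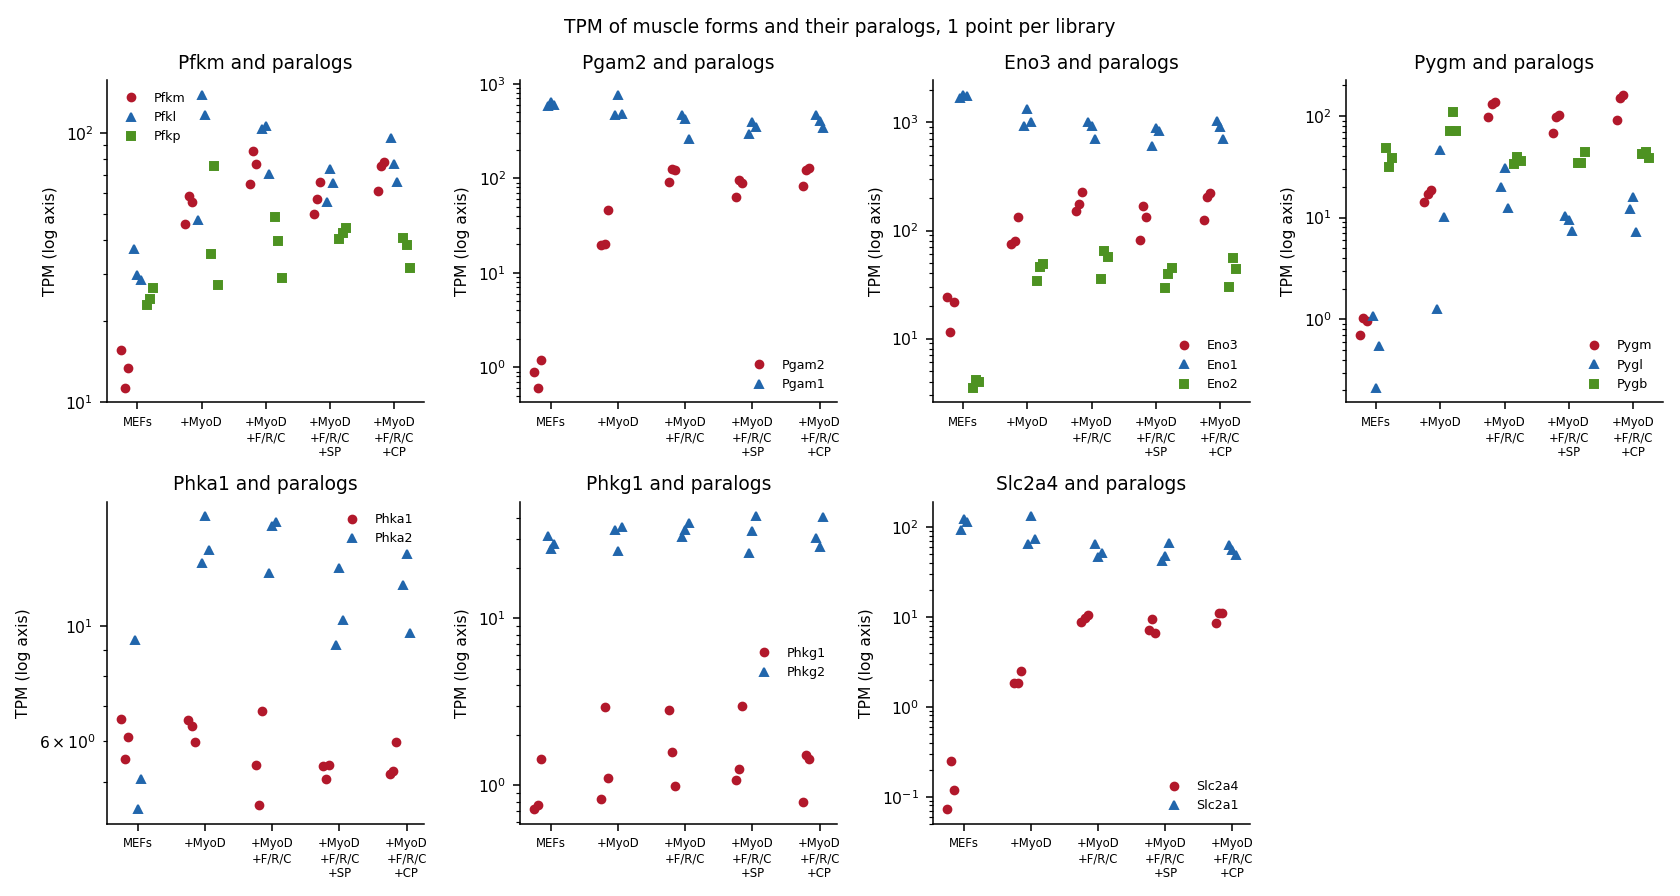
TPM on log axes for the 7 muscle forms (red circles) and their paralogs (blue triangles and green squares), 1 panel per family and 1 point per library, in the 5 groups. Pgam2, Pygm and Slc2a4 were lowest in MEFs and higher in each of the 9 F/R/C libraries than in any +MyoD library, and Eno3 was so in the +MyoD+F/R/C group but not with SP or CP, whereas Phka1 stayed between 4.51 and 6.85 TPM and Phkg1 between 0.720 and 2.99 TPM in all 15 libraries.

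Phosphoglycerate mutase has a muscle subunit, Pgam2, and a brain and general subunit, Pgam1. Pgam2 (chr11:5801640-5803733, minus strand) read 0.891, 0.607 and 1.19 TPM in MEFs, 19.5, 20.3 and 45.9 in +MyoD and 91.4, 125 and 122 in +MyoD+F/R/C. Every step was without overlap between groups. The log2 fold changes were 4.85 ± 0.38, adjusted p = 1.2e-07 for +MyoD against MEFs and 1.91 ± 0.29, adjusted p = 2.6e-04 for the addition of F/R/C. Pgam1 was at 586, 639 and 596 TPM in MEFs, 466, 763 and 478 in +MyoD and 473, 423 and 264 in +MyoD+F/R/C, and fell by 0.88 on the log2 scale between MEFs and +MyoD+F/R/C (SE 0.23, adjusted p = 0.0048). Between +MyoD and +MyoD+F/R/C its difference of -0.64 missed the threshold (adjusted p = 0.06), where the alternatives ranged from 0.032 to 0.32. It passed with the MEF line as a block (-0.64, adjusted p = 0.041), in DESeq2 (-0.62, adjusted p = 0.035) and without the low count filter (-0.61, adjusted p = 0.049). It also passed without +MyoD replicate 1 (adjusted p = 0.032), +MyoD replicate 3 (adjusted p = 0.038) or +MyoD+F/R/C replicate 1 (adjusted p = 0.04).

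Enolase makes phosphoenolpyruvate, and its genes are named for the general (Eno1), neuronal (Eno2) and muscle (Eno3) forms. Eno3 (chr11:70657202-70662513, plus strand) was 24.5, 11.5 and 21.9 TPM in MEFs, 75.4, 79.1 and 134 in +MyoD and 150.0, 176 and 227 in +MyoD+F/R/C. It rose by 1.87 ± 0.31, adjusted p = 1.4e-04 after MyoD and by 1.05 ± 0.30, adjusted p = 0.019 on adding F/R/C. The second call was lost without +MyoD replicate 1, +MyoD replicate 2 or +MyoD+F/R/C replicate 3, and with counts scaled from TPM (adjusted p of 0.066 to 0.075). Eno2 rose from 3.50, 4.12 and 3.94 TPM in MEFs to 34.4, 46.4 and 49.1 in +MyoD (3.24 ± 0.25, adjusted p = 1.0e-07), and was 35.8, 64.6 and 56.6 with F/R/C. Neuron markers (6 of 6 detected, Rbfox3 at 0 in 5 libraries) summed to 35 to 53.3 CPM in MEFs, 55.5 to 116 in +MyoD and 68.6 to 216 in +MyoD+F/R/C. Most of this sum was Tubb3, at 105, 50.4 and 51.3 CPM in +MyoD. Snap25, Syp and Elavl3 were above every MEF library in +MyoD replicate 1 and below every one in +MyoD replicate 2. Map2 was 2.82, 4.57 and 7.12 CPM in +MyoD and 6.45, 11.7 and 7.40 in MEFs. The part of neuron markers in the Eno2 rise was not tested. Eno1, the most abundant enolase in all 15 libraries, was 1688, 1799.8 and 1746 TPM in MEFs, 934, 1340.0 and 1018 in +MyoD and 1009, 919.9 and 710.2 in +MyoD+F/R/C. It was lower than in every MEF library in both other groups, with log2 fold changes of -0.81 ± 0.21, adjusted p = 0.0058 in +MyoD and -1.28 ± 0.22, adjusted p = 1.3e-04 in +MyoD+F/R/C. Of the 31-base words of Eno1, 27.7% also occur in transcripts of Eno1b, whose estimated counts were 0.0529% of those of Eno1. Another gene shared at least 5% of these words for 9 of the 35 members, among them Aldoa, Pfkm, Pkm and Phkg2.

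Pyruvate kinase closes the pathway. The total of Pkm was 1559, 1423 and 1444 TPM in MEFs, 1351, 1420.3 and 1479 in +MyoD and 1623, 1449 and 1193 in +MyoD+F/R/C, and it was called in none of the 5 comparisons. Its transcripts differ by a mutually exclusive exon of 167 bases. The form with exon 9 is known as M1, the form of adult muscle, and the form with exon 10 as M2, the form of embryonic and proliferating cells. The exons lie at chr9:59675029-59675195 (M1) and chr9:59675568-59675734 (M2) on the plus strand of GRCm38. They are 61.7% identical and are printed 5′ to 3′ from the GENCODE transcripts, with their 64 differing bases in capitals.
Pkm M1 exon: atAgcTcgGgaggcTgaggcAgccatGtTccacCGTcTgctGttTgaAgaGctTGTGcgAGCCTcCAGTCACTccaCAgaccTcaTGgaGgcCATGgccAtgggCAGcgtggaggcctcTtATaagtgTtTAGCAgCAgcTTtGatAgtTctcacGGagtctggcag
Pkm M2 exon: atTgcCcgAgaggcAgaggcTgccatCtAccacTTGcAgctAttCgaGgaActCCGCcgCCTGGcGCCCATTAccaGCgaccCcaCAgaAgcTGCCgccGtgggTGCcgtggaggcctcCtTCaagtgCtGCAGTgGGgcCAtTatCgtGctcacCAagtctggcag
Transcripts with the M1 exon held 18.9, 12.3 and 13.7% of the TPM of M1 and M2 transcripts in MEFs replicates 1, 2 and 3, 33.2, 30.6 and 33.2% in +MyoD and 30.1, 35.2 and 37.6% in +MyoD+F/R/C. No treated library overlapped the MEFs. The means were 15 ± 3.44% (SD, n = 3) in MEFs, 32.3 ± 1.51% in +MyoD, 34.3 ± 3.85% in +MyoD+F/R/C, 33.3 ± 0.553% once SP was added and 30.8 ± 3.19% once CP was added. The F/R/C groups overlapped +MyoD. The M2 transcript, Pkm-201, remained the larger form, at 1073, 1101 and 1142 TPM in MEFs and 1097, 899.9 and 705 in +MyoD+F/R/C. These shares are given as a description, and no test was run on them. The 9 Pkm transcripts with neither exon were left out of them. These held 8.31% to 15.2% of Pkm TPM in MEFs, 3.28% to 5.07% in +MyoD and 3.31% to 5.19% in +MyoD+F/R/C. With SP they held 4.80% to 13.3% and with CP 2.16% to 4.91%. In MEFs Pkm-211 read 196 TPM in replicate 1 and 75.4 in replicate 3, and Pkm-210 read 123 in replicate 2. kallisto's split between isoforms carries an error that the tables do not give. The mean M1 share in MEFs was 15% by TPM and 12.7% by estimated counts, so M1 and M2 transcripts also differ in effective length. The split may therefore draw on sequence outside these exons too.

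Transcript Aldoa-203 starts upstream of the more abundant Aldoa-201 and Aldoa-210. It held 0.416, 1.06 and 2.53% of Aldoa TPM in MEFs and 1.56, 1.08 and 1.09% in +MyoD, then 7.51, 3.92 and 6.03% in +MyoD+F/R/C, 2.69, 11.4 and 4.98% once SP was added and 7.59, 7.80 and 6.47% once CP was added. Every F/R/C library was above every MEF and +MyoD library. Its level was 14.8, 19.6 and 12.4 TPM in +MyoD and 131, 68.5 and 98.6 TPM in +MyoD+F/R/C, so that within Aldoa a minor transcript differed between these groups where the gene total overlapped.

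**Figure D3:**
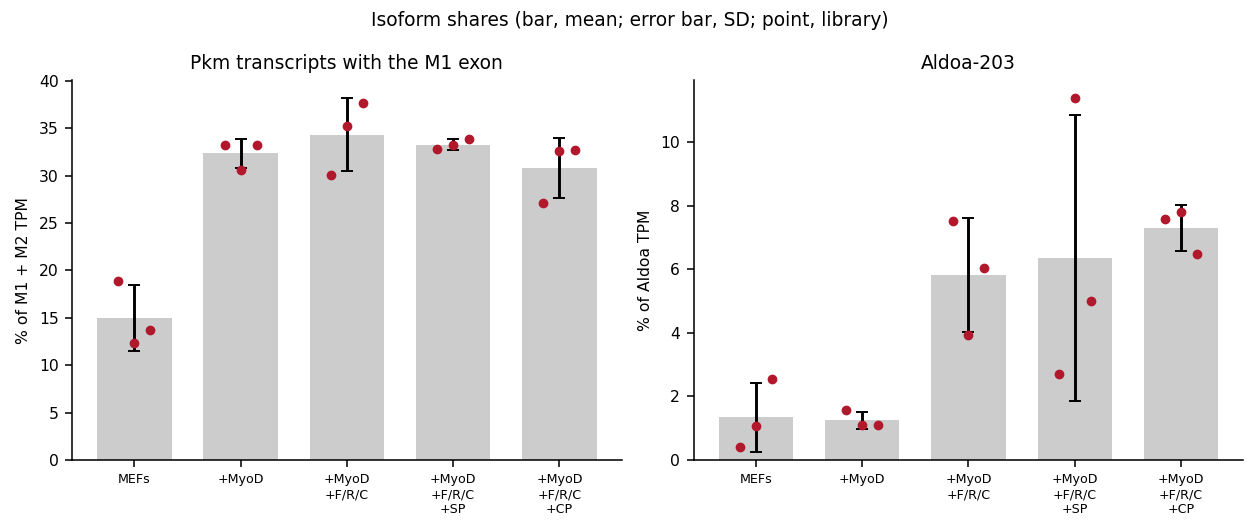
Share of Pkm TPM on transcripts with the M1 exon, out of M1 and M2 transcripts (left), and share of Aldoa TPM on transcript Aldoa-203 (right), in percent, for the 5 groups; bars are means of 3 libraries, error bars SD and points libraries. The M1 share lay between 12.3% and 18.9% in MEFs and between 27.2% and 37.6% in the other 12 libraries, and the Aldoa-203 share exceeded 2.6% only in the F/R/C groups.

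Lactate dehydrogenase is built of A subunits (Ldha), typical of fast muscle, and B subunits (Ldhb), typical of heart and oxidative fibres. Ldha was 888, 881 and 881 TPM in MEFs, 695, 1176 and 922 in +MyoD and 982, 851 and 734 in +MyoD+F/R/C and was called in no comparison. Ldhb rose from 48.1, 37.8 and 49.7 TPM in MEFs to 97.2, 123 and 182 in +MyoD and 364, 451 and 329 in +MyoD+F/R/C. The 3 groups were separate. Its log2 fold changes were 1.35 ± 0.22, adjusted p = 1.5e-04 after MyoD and 1.49 ± 0.22, adjusted p = 2.5e-04 on adding F/R/C. As a share of the TPM of both subunits, Ldhb held 4.86 ± 0.658% (SD, n = 3) in MEFs, 12.8 ± 3.55% in +MyoD and 30.9 ± 3.81% in +MyoD+F/R/C. Cardiac markers (4 of 4 detected, Myl7 at 0 in 8 libraries) summed to 0.595 to 2.12 CPM in MEFs and +MyoD and 2.61 to 7.43 CPM with F/R/C.

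Glycogen phosphorylase releases glucose 1-phosphate from glycogen and has muscle (Pygm), liver (Pygl) and brain (Pygb) forms. Pygm (chr19:6384399-6398459, plus strand) showed the greatest rise of the 35 members in the 3 comparisons among MEFs, +MyoD and +MyoD+F/R/C. It was 0.701, 1.04 and 0.965 TPM in MEFs, 14.1, 17.0 and 18.8 in +MyoD and 97.4, 131 and 136 in +MyoD+F/R/C, and the groups did not overlap. The rise was 29.4-fold after MyoD (4.88 ± 0.26, adjusted p = 5.4e-09) and a further 6.69-fold with F/R/C (2.74 ± 0.22, adjusted p = 1.6e-06), which made 196-fold against MEFs. Pygb, by contrast, went from 48.1, 31.1 and 38.1 TPM in MEFs to 71.5, 109.8 and 70.8 in +MyoD and 33.5, 39.8 and 36.1 in +MyoD+F/R/C. It rose by 0.92 ± 0.17, adjusted p = 3.8e-04 after MyoD and fell when F/R/C was added (log2 fold change -1.04 ± 0.17, adjusted p = 4.6e-04), and +MyoD+F/R/C did not differ from MEFs by the threshold (95% interval -0.48 to 0.24). Pygl varied widely between libraries, at 1.07, 0.212 and 0.552 TPM in MEFs, 1.26, 46.7 and 10.2 in +MyoD and 20.2, 30.7 and 12.4 in +MyoD+F/R/C. Its +MyoD libraries spanned from near the MEFs to the highest value of all 15 libraries, and the log2 fold change of 4.46 ± 0.86, adjusted p = 5.4e-04 carries a 95% interval of 2.63 to 6.29. Hepatocyte markers (4 of 4 detected) summed to at most 0.291 CPM in MEFs and +MyoD and to 1.47 to 6.93 CPM with F/R/C.

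Phosphorylase kinase consists of regulatory alpha (Phka1 in muscle, Phka2 in liver), regulatory beta (Phkb) and catalytic gamma subunits (Phkg1 in muscle, Phkg2 in liver and testis). The 2 muscle subunits were the muscle forms that were not called in any of the 5 comparisons. Phka1 (chrX:102513975-102644246, minus strand) was 6.61, 5.53 and 6.11 TPM in MEFs, 6.58, 6.41 and 5.96 in +MyoD and 5.39, 4.51 and 6.85 in +MyoD+F/R/C, and the groups overlapped. Its log2 fold change between +MyoD and MEFs was -0.11, with a 95% interval of -0.44 to 0.21, whereas that of Pygm in the same libraries was 4.88. Without +MyoD+F/R/C replicate 3 Phka1 was called lower in +MyoD+F/R/C than in MEFs (-0.56, adjusted p = 0.0072, over a range of 0.0072 to 0.26). Phkg1 (chr5:129863421-129898549, minus strand) was low, at 0.720, 0.763 and 1.44 TPM in MEFs and 2.82, 1.59 and 0.995 in +MyoD+F/R/C. Its 95% interval of -0.52 to 1.30 for +MyoD+F/R/C against MEFs leaves room for a change of either sign, and 9.49% of its 31-base words also occur in transcripts of Sumf2, whose estimated counts were 1971% of those of Phkg1. The liver alpha subunit Phka2 rose from 9.37, 4.44 and 5.07 TPM in MEFs to 13.2, 16.2 and 14.0 in +MyoD (0.85 ± 0.24, adjusted p = 0.0094). In CPM the 2 groups overlapped, at 19.5, 11.8 and 12.3 in MEFs and 18.4, 32.6 and 27.9 in +MyoD. The call was lost without MEFs replicate 2 (adjusted p = 0.052) or +MyoD replicate 2 (adjusted p = 0.051), over a range of 0.0017 to 0.052. Phkb rose from 9.19, 7.79 and 11.6 TPM to 11.6, 17.1 and 28.0 in +MyoD (0.95 ± 0.17, adjusted p = 3.1e-04) and was 22.6, 19.1 and 23.5 with F/R/C. Phkg2 ranged from 24.7 to 40.8 TPM over all 15 libraries and was not called. Of its 31-base words, 19.6% also occur in transcripts of Ccdc189, whose estimated counts were 11.8% of those of Phkg2.

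Glycogen is built from UDP-glucose (Ugp2) on a glycogenin primer (Gyg) by glycogen synthase (Gys1, the muscle form) and branching enzyme (Gbe1). Gys1 was 30.2, 31.8 and 28.8 TPM in MEFs, 46.2, 70.0 and 49.3 in +MyoD and 61.8, 64.7 and 60.9 in +MyoD+F/R/C. Both treated groups lay above all MEFs. Of the 31-base words of Gys1, 5.38% also occur in transcripts of Ruvbl2. The estimated counts of Ruvbl2 were 61.5% of those of Gys1 over all libraries, and up to 229% in a single library. Gys1 was called higher in +MyoD (0.76 ± 0.18, adjusted p = 0.0025) and in +MyoD+F/R/C (0.87 ± 0.18, adjusted p = 6.9e-04). Gyg showed a like rise, from 46.4, 42.4 and 43.6 TPM in MEFs to 70.4, 111 and 77.6 in +MyoD (0.80 ± 0.20, adjusted p = 0.0047) and 64.1, 75.0 and 113 in +MyoD+F/R/C (0.71 ± 0.20, adjusted p = 0.0085), the last call being lost without +MyoD+F/R/C replicate 3. Of the remaining pair, Ugp2 ranged from 43.2 to 96.8 TPM and Gbe1 from 9.14 to 19.9 TPM over the 15 libraries, and neither was called. Together the 12 glycogen genes took 243, 206 and 227 TPM in MEFs, 334, 489 and 372 in +MyoD and 431, 481 and 522 in +MyoD+F/R/C.

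**Figure D4:**
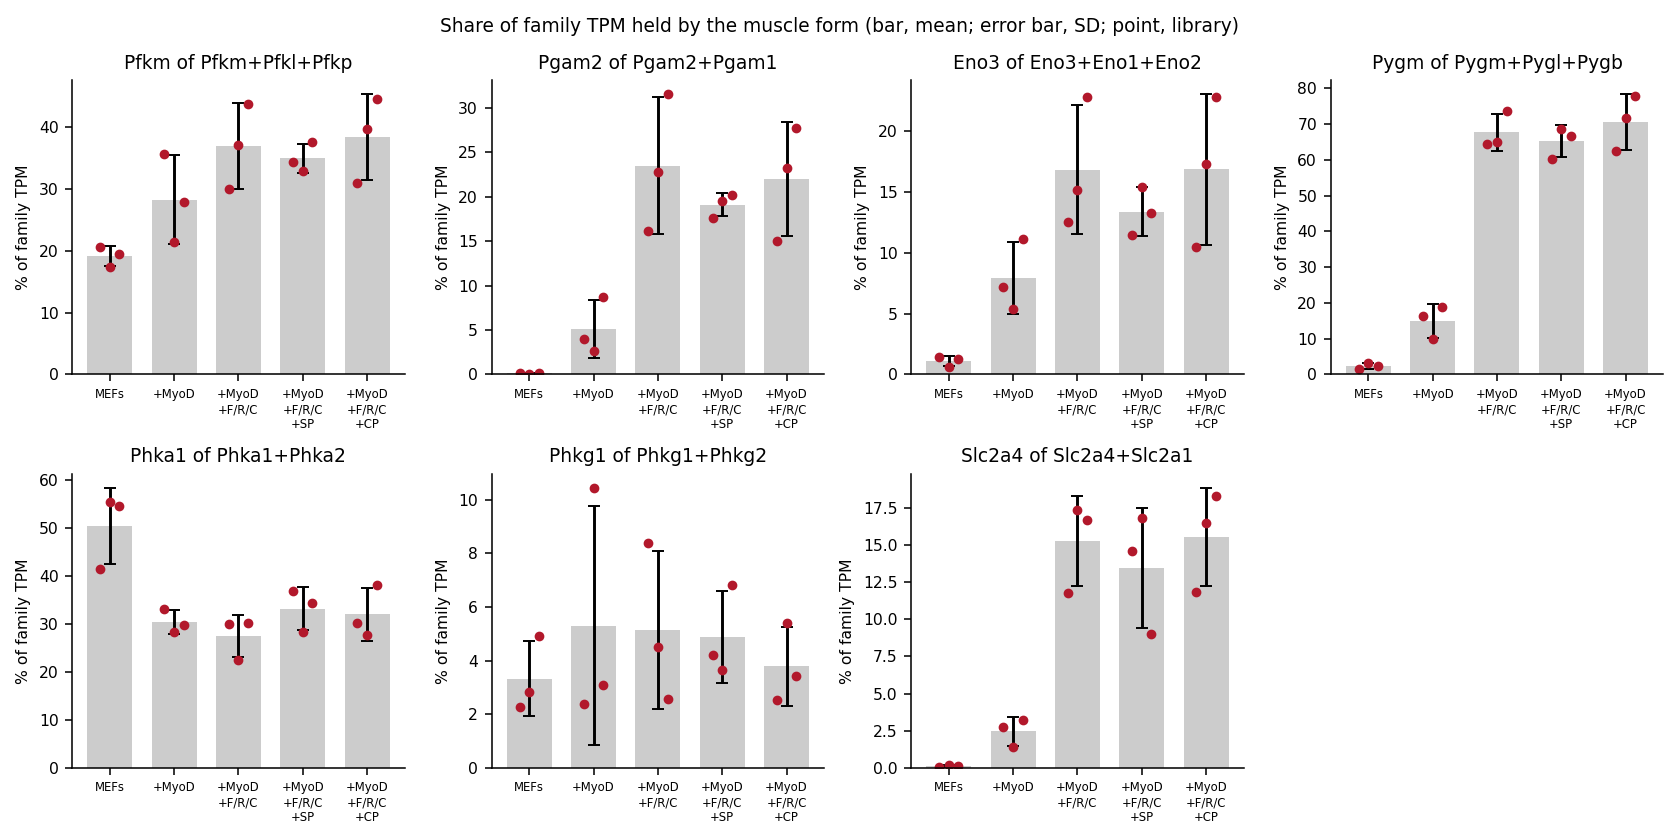
Share of family TPM held by the muscle form, in percent, 1 panel per family, for the 5 groups; bars are means of 3 libraries, error bars SD and points libraries. Pygm reached between 60.1% and 77.7% in the 9 F/R/C libraries from at most 3.21% in MEFs, Eno3 and Pgam2 stayed the minor form, and Phka1 went from a mean of 50.5% to between 27.5% and 33.2%.

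Placing each muscle form beside its paralogs shows which families changed composition. Pygm held 1.41, 3.21 and 2.43% of phosphorylase TPM in MEFs replicates 1, 2 and 3, 16.3, 9.79 and 18.8% in +MyoD and 64.5, 65.0 and 73.7% in +MyoD+F/R/C. It was the most abundant phosphorylase in each +MyoD+F/R/C library, whereas Pygb was so in each MEF and +MyoD library. Pgam2 held 0.149 ± 0.0527% (SD, n = 3) of mutase TPM in MEFs, 5.12 ± 3.22% in +MyoD and 23.5 ± 7.70% in +MyoD+F/R/C. For Eno3 the shares were 1.10 ± 0.415%, 7.93 ± 2.94% and 16.9 ± 5.34% in the same order. For Slc2a4, beside Slc2a1, they were 0.129 ± 0.0664%, 2.46 ± 0.957% and 15.3 ± 3.05%. In these 4 families the 3 groups did not overlap. Pfkm went from 19.1 ± 1.68% to 28.2 ± 7.15% and 36.9 ± 6.90%, and there +MyoD and +MyoD+F/R/C overlapped. Pfkl also rose in +MyoD. Phka1 moved the other way, from 41.4, 55.5 and 54.7% in MEFs to 33.2, 28.3 and 29.9% in +MyoD, while its own level overlapped and Phka2 rose. Phkg1 held at most 10.4% in any library. The shares are given as a description, and no test was run on them. Over all 7 muscle forms the summed TPM was 49.1, 31 and 45.1 in MEFs, 164, 186 and 264 in +MyoD and 420.5, 534 and 579 in +MyoD+F/R/C. The 10 paralogs together took 2519, 2681 and 2585 TPM in MEFs and 1832, 1720 and 1284 in +MyoD+F/R/C. The 35 members summed to 1.22% of all TPM in MEFs, 1.19% in +MyoD and 1.25% in +MyoD+F/R/C, and these group means differed by less than the SD within +MyoD.

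The windows of 250 bases before annotated starts were read from the RefSeq promoter table (GRCm38.p6), which held 34 of the 35 members, all but Slc2a4. Muscle transcription factors of the MyoD family bind the E-box, spelled CANNTG, often with the core CAGCTG, and MEF2 proteins bind an AT-rich motif. Both strands were covered, as each motif reads the same on either. Over 32851 windows of all genes, 66.2% held CANNTG, 13.0% CAGCTG and 2.92% the MEF2 motif, and a CAGCTG counts as a CANNTG too. Of 9 windows from 6 muscle forms, 8 held CANNTG, 3 CAGCTG and 1 the MEF2 motif, whereas of 12 windows from the 10 paralogs 4 held CANNTG and none the other motifs. Of 29 windows from the 18 other members, 22 held CANNTG, 5 CAGCTG and 1 the MEF2 motif. The windows of Phka1, with 2 CANNTG of which 1 was CAGCTG, and of Phkg1, with 5 CANNTG, belong to muscle forms that were not called. The windows of 3 muscle forms with a called rise at both steps are printed below (the fourth, Slc2a4, has none). The most upstream Aldoa window follows under the name Aldoa-203, but its start is not shown here to be that of the transcript. All are 5′ to 3′ on the gene's strand, with CANNTG and, in Pgam2, the MEF2 motif in capitals.
Pygm, chr19:6384158-6384407, plus strand: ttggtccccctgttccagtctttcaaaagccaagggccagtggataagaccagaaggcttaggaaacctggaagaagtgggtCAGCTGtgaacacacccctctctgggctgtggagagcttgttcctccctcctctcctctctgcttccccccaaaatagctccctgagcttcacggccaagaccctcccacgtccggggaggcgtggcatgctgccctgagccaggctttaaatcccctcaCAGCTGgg
Pgam2, chr11:5803797-5804046, minus strand: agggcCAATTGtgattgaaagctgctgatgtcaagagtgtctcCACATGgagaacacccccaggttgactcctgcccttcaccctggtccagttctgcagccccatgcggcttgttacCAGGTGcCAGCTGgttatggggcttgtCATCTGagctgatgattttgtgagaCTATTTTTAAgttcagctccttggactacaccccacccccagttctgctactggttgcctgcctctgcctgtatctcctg
Eno3, chr11:70656926-70657175, plus strand: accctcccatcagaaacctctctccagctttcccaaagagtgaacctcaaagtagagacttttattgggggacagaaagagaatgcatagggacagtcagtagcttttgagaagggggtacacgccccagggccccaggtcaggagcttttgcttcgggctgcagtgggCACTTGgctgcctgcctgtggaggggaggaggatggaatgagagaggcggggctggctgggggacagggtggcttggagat
Aldoa-203, chr7:126800448-126800697, minus strand: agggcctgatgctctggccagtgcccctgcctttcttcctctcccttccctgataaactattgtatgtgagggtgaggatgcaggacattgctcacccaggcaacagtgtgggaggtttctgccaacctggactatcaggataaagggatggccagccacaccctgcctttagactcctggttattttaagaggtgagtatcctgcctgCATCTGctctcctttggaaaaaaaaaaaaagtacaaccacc
In Pygm both E-boxes had the core CAGCTG and began 168 and 8 bases before the start in the RefSeq table. That start lies downstream of the GENCODE gene start at 6384399, so the second E-box falls within the GENCODE gene. In Pgam2 there were 5, beginning 245, 207, 132, 125 and 105 bases before the start, and the MEF2 motif began at 80. Eno3 and the window named Aldoa-203 had 1 each. The windows of Pgam2 and Eno3 lie wholly upstream of the GENCODE gene starts, at 5803733 and 70657202. The window named Aldoa-203 lies within the GENCODE gene, which starts at 126800751 on the minus strand. A match of letters is a description of the window and was not tested as a binding site.

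The SP and CP comparisons ask whether JNK or JAK inhibition on top of F/R/C was accompanied by a further difference, and both use the same 3 +MyoD+F/R/C libraries as reference. No member was called in either, where 0% of all tested genes were called higher in each, 0% lower with SP and 0.0362% lower with CP. At an unadjusted p under 0.05 edgeR gave 0 members for SP and 1 for CP, beside 1280 and 1529 of all tested genes, and DESeq2 also called none of the members. With SP 29 of 35 log2 fold changes were below 0, and their median was -0.19. With CP 21 were below 0, and the median was -0.05. The median over all tested genes was -0.0006 with SP and -0.0003 with CP. Line by line, 13 members were lower and 2 higher with SP in 3 of 3 lines, where 18.4% of tested genes were lower and 18.7% higher in all 3. With CP 8 members were lower and 2 higher in 3 of 3 lines, beside 20.0% and 20.7% of tested genes. The member with the unadjusted p under 0.05 was Ldhb, at 214, 254 and 289 TPM with CP and 364, 451 and 329 without (log2 fold change -0.61 ± 0.22, adjusted p = 0.45, 95% interval -1.08 to -0.14). Its libraries did not overlap. Pygl was 10.3, 9.52 and 7.37 TPM with SP, 12.3, 15.8 and 7.17 with CP and 20.2, 30.7 and 12.4 in the reference, with log2 fold changes of -1.28 and -1.0 and intervals of -2.83 to 0.27 and -2.54 to 0.54. Aldoc followed with -0.97 for SP (-2.02 to 0.09) and -0.60 for CP (-1.65 to 0.45). Among the muscle forms, none of which was called, Pygm stood at 67.7, 96.5 and 102 TPM with SP and 90.9, 151 and 161 with CP, and Pgam2 at 62.9, 95.9 and 89.3 with SP and 83.1, 121 and 129. Over the 35 members the 95% interval reached a median of 0.45 to either side (log2) in both comparisons. Differences of that size or larger could still go uncalled, as that of Ldhb with CP did, because a call needed the adjusted p threshold. SP replicate 1 had the lowest CPM of its group for 22 members, where 33.4% of tested genes were lowest there, and it had the highest mitochondrial share of the 15 libraries, 5.06%.

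**Figure D5:**
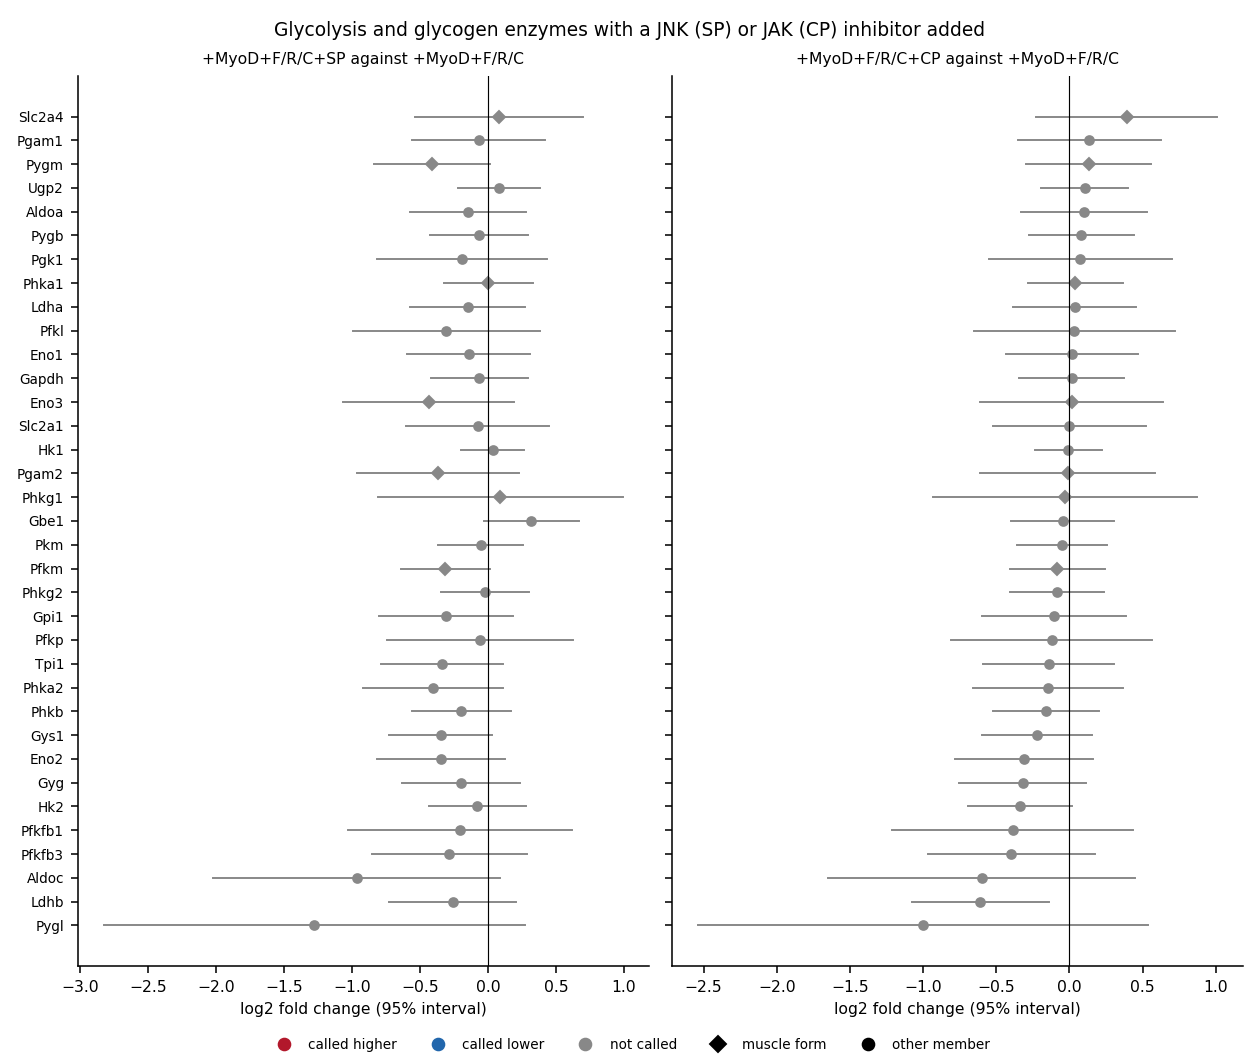
Log2 fold changes of the 35 members with SP (left) or CP (right) against +MyoD+F/R/C, with 95% intervals from the edgeR fit and diamonds for the 7 muscle forms. All points are grey, as no member was called, and in each panel 34 or more of the intervals cross 0.

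Other genes of sugar and glycogen metabolism were followed as a list of 64, of which 57 were tested. In +MyoD against MEFs 24 were higher and 7 lower, on adding F/R/C 8 were higher and 2 lower, and in +MyoD+F/R/C against MEFs 29 were higher and 6 lower, with none called for SP or CP. Over all tested genes the shares called were 22.8% higher and 18.0% lower, 10.9% and 8.39%, and 26.6% and 21.6% in the first 3 comparisons. The list's median log2 fold changes there were 0.73, 0.14 and 0.76, beside 0.12, 0.03 and 0.19 over all tested genes. Ppp1r3c, a subunit that targets protein phosphatase to glycogen, rose at both steps, from 0.167, 0.0320 and 0.0840 TPM in MEFs to 1.73, 6.42 and 3.34 in +MyoD and 12.2, 21.7 and 17.9 in +MyoD+F/R/C (5.20 ± 0.56, adjusted p = 2.3e-06 and 2.09 ± 0.40, adjusted p = 0.0017). Its muscle relative Ppp1r3a had 0 counts in the 3 MEF libraries and 0.347, 0.529 and 0.417 TPM in +MyoD and 1.48, 1.09 and 1.89 in +MyoD+F/R/C. Against a floor of 3 counts per MEF library it was at least 19.3-fold higher in +MyoD and at least 64.2-fold higher in +MyoD+F/R/C. Fbp2, the muscle fructose bisphosphatase, was 0.876, 0.686 and 2.23 TPM in +MyoD and 15.1, 14.8 and 29.9 in +MyoD+F/R/C (4.26 ± 0.67, adjusted p = 3.2e-04). The glycogen-binding protein Stbd1 was 28.7, 34.9 and 22.5 TPM in +MyoD and 99.7, 111 and 119 with F/R/C (1.88 ± 0.18, adjusted p = 8.1e-06). Gpd1, which makes glycerol 3-phosphate, also rose with F/R/C (2.60 ± 0.27, adjusted p = 1.3e-05), and Pgm5 rose in +MyoD against MEFs (3.82 ± 0.35, adjusted p = 5.4e-07). The lactate exporter Slc16a3 read 3.79, 7.38 and 2.92 TPM in MEFs and 4.34, 185 and 38.6 in +MyoD (4.01 ± 0.90, adjusted p = 0.0019), where replicate 2 was far above the others and the groups overlapped.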

How the data were processed

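Per the labels, the submitters' processing notes and the study's methods, total RNA with a RIN above 8 was made into TruSeq stranded poly-A libraries, reads were demultiplexed with bcl2fastq 2.20 and trimmed with fastp 0.20.0, and kallisto 0.46.1 estimated transcript abundance on GRCm38.p6. Whether kallisto was told the strand is not given in the sources used here. The authors deposited, for each library, estimated counts and TPM for 121843 transcripts, with transcript length and effective length. Of these, 121104 were matched by identifier to GENCODE M21 (GRCm38) and summed to 35675 genes. The 739 unmatched held 0.236% to 0.327% of the counts.

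Estimated counts were rounded and fitted in edgeR 4.0.16 (R 4.3.3) with TMM scaling, filterByExpr (minimum count 10) and a quasi-likelihood test over all 15 libraries with condition as the term. Comparisons sharing a group are not independent. The 95% intervals come from the same fit. Deposited TPM, a level per length, served to compare genes, shares and isoforms. Libraries held 29393872 to 41885769 estimated counts. Replicates differed by far more than counting error (chi-square per degree of freedom of at least 15.4, biological coefficient of variation of 0.35 in the fit), so that the spread between libraries limited the precision. Alternatives were the RLE size factors, DESeq2 1.42.0, no filter, lengthScaledTPM counts, fewer libraries, a replicate block and leaving out each library.

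The replicate numbers were taken to name the 3 MEF lines, which the sample titles do not state. Deviations from group means correlated weakly between libraries of the same replicate number, at a mean r of 0.074 (30 pairs, -0.004 to 0.237). The mean was -0.037 between different numbers (60 pairs), which is no separate result, as deviations within a group cancel. All 15 libraries were closest to their own replicate number. The members were taken by a fixed list and named by role, and the other genes of the pathway by size among those called. Members and lists were chosen with earlier results of these data known.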

Additional observations from a re-analysis of the deposited data

How the results depend on the processing

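Of 74 log2 fold changes followed through the alternatives, none that was called reversed. Members called higher in +MyoD against MEFs numbered 14 to 19 when 1 library was left out, and those called lower 1 to 5. For the addition of F/R/C the ranges were 4 to 7 and 2 to 5, and for +MyoD+F/R/C against MEFs 15 to 15 and 3 to 6. Without a library, the counts of lower members that moved by over 1.5 times were 2 (MEFs replicate 1), 2 (+MyoD replicate 1) and 5 (+MyoD replicate 2) in +MyoD against MEFs, 5 (+MyoD replicate 1) on adding F/R/C and 6 (+MyoD+F/R/C replicate 1) in +MyoD+F/R/C against MEFs. The cause was not tested. RLE size factors, DESeq2, no filter, lengthScaledTPM counts and smaller sets of libraries kept each count within 1.5 times. SP and CP gave 0 members in every alternative. With the MEF line as a replicate block, Pgam1 passed the threshold on adding F/R/C (log2 fold change -0.64), and no other call of a member changed. Reversed values belonged to members without a call: Phkg1 (-0.01 without MEFs replicate 1 and -0.12 without +MyoD replicate 2), Aldoa (-0.14 without +MyoD replicate 2) and Ldha (0.13 without +MyoD replicate 1) in +MyoD against MEFs, Pygl (-0.12 without +MyoD replicate 1 and -0.02 without +MyoD+F/R/C replicate 2) on adding F/R/C, and Gyg with SP (0.037 without +MyoD+F/R/C replicate 3). Over the libraries left out, these values ranged from -0.12 to 0.22 for Phkg1, -0.14 to 0.43 for Aldoa, -0.32 to 0.13 for Ldha, -0.12 to 1.80 for Pygl and -0.36 to 0.037 for Gyg.

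Shares computed from estimated counts, which are not per length, moved by over 1 SD in 22 of 45 cases, and the order of the groups was read from TPM. They were 0.0689%, 12.8%, 10.1% and 11.5% for Pgam2 in MEFs and the 3 F/R/C groups, 4.31%, 11.3% and 8.99% for Eno3 in +MyoD, +MyoD+F/R/C and the SP group, 0.919%, 58.4%, 56.7% and 62.6% for Pygm in MEFs and the F/R/C groups, 61.6%, 45.2%, 40.5%, 47.3% and 43.9% for Phka1 in the 5 groups, 5.79% for Phkg1 with CP, 11.4% for Slc2a4 in +MyoD+F/R/C, and 28.2%, 30.1%, 29.1% and 26.9% for the M1 form of Pkm in the 4 transfected groups.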

Other observations

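The pyruvate dehydrogenase complex carries pyruvate from glycolysis into the mitochondrion, and its kinases switch it off. These genes stood on the list of other pathway genes and were singled out after their values were seen. They were not followed through the alternatives. In +MyoD against MEFs, edgeR called Pdha1 (-0.81), Dlat (-0.92), Dld (-0.86) and Pdhx (-0.76) lower, as log2 fold changes, while Pdhb (-0.35) was not called. Of the kinases, Pdk1 (2.87), Pdk2 (2.65) and Pdk4 (1.32) were higher and Pdk3 (0.17) was not called. Pdk1 read 5.45, 2.08 and 2.84 TPM in MEFs and 5.78, 45.7 and 16.4 in +MyoD, with replicate 2 highest. The list also held Pdp1 and Pdp2, for phosphatases of the complex. Pdp1 was 10.2, 10.2 and 12.7 TPM in MEFs, 16.5, 17.5 and 15.9 in +MyoD and 21.5, 18.1 and 28.5 in +MyoD+F/R/C. The levels of Pdp2 overlapped between these groups. In +MyoD+F/R/C against the same MEFs, Pdha1 (-0.84), Dlat (-0.90) and Dld (-0.72) were lower, Pdhx (0.03) and Pdhb (-0.04) were not called, Pdk1 (3.20), Pdk2 (2.80) and Pdk4 (0.66) were higher, and Pdk3 (-0.17) was not called.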
